A study of Mus musculus with 12 samples.

Results

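Genes that mark the oligodendrocyte lineage were followed through 4 preparations of mouse cortex RNA. The 7 genes, taken by symbol from a list of precursor and lineage markers, were Pdgfra, Cspg4, Gpr17, Bcas1, Olig1, Olig2 and Sox10, out of 29879 genes in the count tables, and each had 1 row. The cortex came from mice of the SNAP25 bacTRAP line at postnatal day 21, in which a ribosomal protein tagged with green fluorescent protein (GFP) is driven by the neuronal gene Snap25. SynapTRAP is RNA on tagged ribosomes pulled down from the synaptic (SN) band, collected on a gradient of sucrose and percoll, and SNF is that band before the pull-down. TRAP (translating ribosome affinity purification) is RNA on tagged ribosomes pulled down from the whole cortex homogenate, and WCH is that homogenate. Each of the 4 groups had 3 libraries, all from the same transgenic line, tissue and age, so the tagged ribosomes were present in the WCH and SNF mice too.

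Oligodendrocytes wrap the axons of the central nervous system in myelin, and they arise from precursor cells that keep dividing in the postnatal cortex. The precursors carry the growth factor receptor PDGFRA and the proteoglycan NG2 (the product of Cspg4), pass through a committed stage marked by GPR17 and BCAS1, and depend at all stages on the transcription factors OLIG2 and SOX10. Precursors are known to receive synapses from neurons. The tag in these mice was driven in neurons, so the lineage genes were read here as genes of a cell type outside the targeted one.

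The start of each coding sequence is shown because the genes fall into proteins that enter the secretory pathway and proteins that stay in the cytoplasm or nucleus. The first 90 coding bases, 30 codons, are printed in the sense direction from GENCODE M21 transcripts (GRCm38), with codons whose middle base is T in capitals. Such codons specify phenylalanine, leucine, isoleucine, methionine or valine, the hydrophobic residues that make up the core of a signal peptide. Gpr17 is described without a sequence.
Pdgfra: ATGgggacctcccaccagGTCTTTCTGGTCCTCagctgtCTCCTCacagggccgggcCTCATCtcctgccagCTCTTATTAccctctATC
Cspg4: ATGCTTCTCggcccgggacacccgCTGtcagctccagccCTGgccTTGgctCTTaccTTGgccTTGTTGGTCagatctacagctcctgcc
Bcas1: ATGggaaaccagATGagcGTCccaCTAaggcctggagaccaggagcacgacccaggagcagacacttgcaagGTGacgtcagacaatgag
Olig1: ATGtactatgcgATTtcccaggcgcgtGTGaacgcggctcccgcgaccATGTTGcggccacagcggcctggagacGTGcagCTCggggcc
Olig2: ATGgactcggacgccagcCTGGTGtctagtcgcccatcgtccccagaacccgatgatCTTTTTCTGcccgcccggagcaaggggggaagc
Sox10: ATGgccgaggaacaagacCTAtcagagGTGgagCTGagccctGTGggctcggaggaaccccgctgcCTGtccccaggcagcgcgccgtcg
Pdgfra had 14 such codons among its first 30, with a longest run of 5, and 10.1% of 20888 protein-coding genes had as many or more. Cspg4 had 11, which 31.3% of genes reached. Over all those genes the median was 9, with quartiles of 6 and 11. Bcas1 had 5, Olig1 had 7, and Olig2 and Sox10 had 6 each, all below the median. The count describes these letters and tests nothing about where the RNA was translated.

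On GRCm38 (GENCODE M21, counted from 1), Pdgfra lies on chromosome 5 at 75152292 to 75198215 on the plus strand and Cspg4 on chromosome 9 at 56865033 to 56899870 on the plus strand. Gpr17 lies on chromosome 18 at 31942997 to 31949636 on the minus strand and Bcas1 on chromosome 2 at 170346991 to 170427845 on the minus strand. Olig2 and Olig1 are neighbours on chromosome 16, at 91225457 to 91228677 and 91269772 to 91271933 on the plus strand, with 41094 bases between them. Sox10 lies on chromosome 15 at 79154908 to 79165240 on the minus strand. All 7 are annotated as protein-coding, and the counts are over their exons. Whether the counting used strand is not stated, so reads of antisense genes could not be told apart. Exons of Pdgfra share 456 bases with the antisense gene Gm42802 and 166 with the opposite-strand gene Gm42803. Exons of Bcas1 share 440 bases with the antisense gene Bcas1os1 and 34 with Bcas1os2. None of these opposite-strand genes was analysed here. Exons of Gpr17 share 188 bases with the opposite-strand gene Lims2, which had 876 counts over all 12 libraries. Those of Olig1 share 157 bases with the opposite-strand gene Gm15966, which had 0 counts.

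Libraries held 4368881 to 14335089 gene counts and 1819853 to 7115176 counts outside the mitochondrial genome. Mitochondrial RNA made up 20.4% to 63.3% of the gene counts in SynapTRAP, 82.2% to 87.3% in SNF, 0.930% to 5.43% in TRAP and 33.6% to 50.9% in WCH. Counts of the 7 genes in a library ran over 95 to 5677 in SynapTRAP, 30 to 589 in SNF, 26 to 1637 in TRAP and 35 to 704 in WCH. The smallest, 26 counts of Cspg4 in TRAP replicate 2, has an exact 95% Poisson interval of 17.0 to 38.1, which covers counting error only. Replicates are separate samples by their labels, which do not tie them to separate animals, so p-values measure the spread between samples and this may be technical. GFP mRNA was higher in TRAP than in WCH by 2.45 on the log2 scale (SE 0.329, adjusted p = 7.24e-05, edgeR's quasi-likelihood test). The neuronal gene Snap25 differed by 0.30 between TRAP and WCH (SE 0.276, adjusted p = 0.470).

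For these genes, TRAP replicates 2 and 3 and SynapTRAP replicate 3 were often the lowest or highest library of their group. TRAP replicate 3 was the highest TRAP library for 6 of the 7 and TRAP replicate 2 the lowest for 6 of the 7. SynapTRAP replicate 3, the one with 63.3% mitochondrial counts, was the highest SynapTRAP library for 6 of the 7. Its margin over replicate 2 was small for Pdgfra (38.9 against 38.6 CPM) and Gpr17 (96.5 against 95.2 CPM). The coefficient of variation between replicates had a median over the genes of 22.9% in SynapTRAP, 20.0% in SNF, 53.6% in TRAP and 17.5% in WCH.

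Levels are CPM, the usual depth-scaled read count, after scaling by trimmed mean of M-values (TMM), and all 7 genes passed the filter on low counts that left 13404 genes. Pdgfra, the receptor through which platelet-derived growth factor drives precursor division, had 25.2, 38.6 and 38.9 CPM in SynapTRAP replicates 1 to 3, 48.0, 55.0 and 42.5 CPM in SNF, 7.94, 2.81 and 10.7 CPM in TRAP and 13.3, 9.99 and 12.8 CPM in WCH. Every SynapTRAP and SNF library lay above every TRAP and WCH library, and TRAP replicate 2 was the lowest of all 12. Cspg4, the NG2 proteoglycan of the precursor surface, had 21.3, 14.7 and 14.7 CPM in SynapTRAP, 18.1, 21.8 and 11.9 CPM in SNF, 4.35, 2.35 and 6.08 CPM in TRAP and 2.70, 2.63 and 3.94 CPM in WCH. The synaptic band and its pull-down again lay above both homogenate groups in every library, while TRAP and WCH overlapped. Gpr17, a G protein-coupled receptor of committed precursors, had 89.6, 95.2 and 96.5 CPM in SynapTRAP, 92.0, 156 and 118 CPM in SNF, 24.99, 11.0 and 32.6 CPM in TRAP and 30.5, 34.2 and 48.8 CPM in WCH. Its pattern had the same gap between both synaptic-band groups and both homogenate groups.

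Bcas1, whose protein appears in oligodendrocytes that are starting to myelinate, had 273, 240 and 836 CPM in SynapTRAP, 107, 83.4 and 135 CPM in SNF, 52.4, 10.1 and 140 CPM in TRAP and 34.8, 31.4 and 27.8 CPM in WCH. SynapTRAP lay above all other libraries, and the TRAP libraries spanned the WCH range on both sides.

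Among the transcription factors, Olig1 had 79.0, 98.7 and 171 CPM in SynapTRAP, 79.9, 63.8 and 76.1 CPM in SNF, 18.7, 11.0 and 42.9 CPM in TRAP and 51.9, 47.5 and 46.8 CPM in WCH. All 3 TRAP libraries lay below WCH and all 3 SNF libraries above it. Olig2, which commits progenitors to the lineage, had 9.45, 12.4 and 14.0 CPM in SynapTRAP, 8.91, 10.9 and 7.29 CPM in SNF, 3.53, 2.44 and 3.51 CPM in TRAP and 10.9, 7.63 and 9.62 CPM in WCH. TRAP was the lowest group without overlap, and the other 3 groups overlapped one another. Sox10, which activates myelin genes, had 14.0, 13.04 and 23.3 CPM in SynapTRAP, 13.5, 13.3 and 10.7 CPM in SNF, 5.70, 6.52 and 14.3 CPM in TRAP and 21.8, 18.3 and 13.3 CPM in WCH. Only TRAP replicates 1 and 2 stood below all libraries of the other groups.

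**Figure D1:**
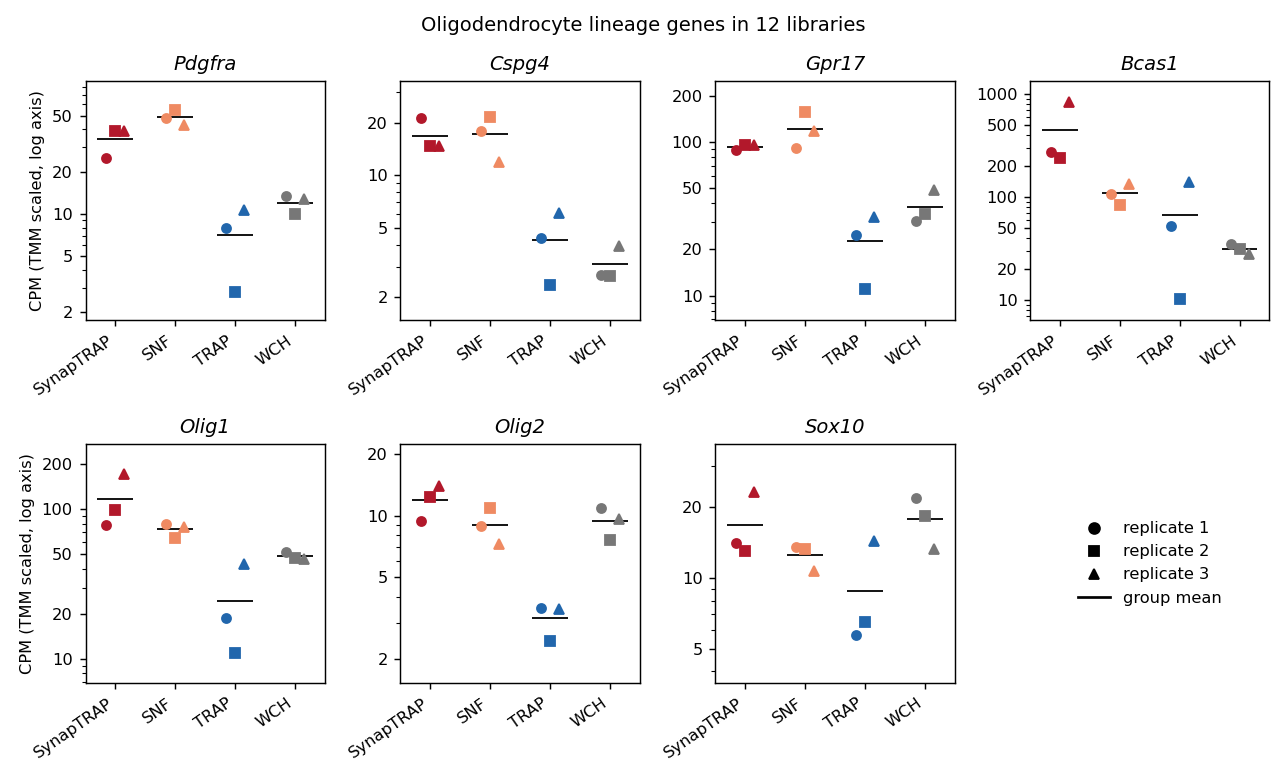
Level of each gene in every library (y axis, TMM-scaled CPM on a log axis; x axis, the 4 groups; symbols, replicates; line, group mean). Pdgfra, Cspg4 and Gpr17 are higher in every SynapTRAP and SNF library than in any TRAP or WCH library, whereas the SNF and WCH libraries overlap for Olig2 and Sox10; with scaling by total counts instead, Pdgfra and Gpr17 are lower in SNF than in WCH.

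Levels of different genes were compared per kb of annotated exons. In WCH, Olig1 averaged 22.5 ± 1.27 CPM per kb (SD, n = 3) and was followed by Bcas1 (8.30), Gpr17 (7.29), Sox10 (5.83), Olig2 (3.70), Pdgfra (1.20) and Cspg4 (0.259). Bcas1 and Gpr17, and Gpr17 and Sox10, had overlapping ranges there, and the other neighbours in that order did not overlap. In TRAP the order of the means was Bcas1 (17.9 CPM per kb), Olig1 (11.2), Gpr17 (4.40), Sox10 (2.90), Olig2 (1.25), Pdgfra (0.713) and Cspg4 (0.357), and Sox10 and Olig2 were the sole neighbours whose ranges did not overlap. In SNF, Olig1 (33.9 CPM per kb), Bcas1 (28.7) and Gpr17 (23.5) overlapped as neighbours, stood above Pdgfra (4.84), Sox10 (4.10) and Olig2 (3.57), which overlapped as neighbours too, and left Cspg4 lowest (1.45). Bcas1 stood first in SynapTRAP with 119 ± 88.8 CPM per kb (SD, n = 3), overlapping Olig1 (53.7), and Gpr17 (18.05), Sox10 (5.50), Olig2 (4.72), Pdgfra (3.41) and Cspg4 (1.42) followed. There, Sox10 and Olig2, and Olig2 and Pdgfra, overlapped as well.

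The SNF and WCH libraries were compared to show which RNAs the gradient band holds relative to the homogenate. In the fit of all 12 libraries, the receptor and proteoglycan genes were higher in the synaptic band, and the transcription factors were not shown to differ. In a fit of the SNF and WCH libraries alone, of 12356 genes, Bcas1 and Olig1 were called higher as well, and Olig2 and Sox10 were not. The share of all genes called in that smaller fit is not given here. Relative to WCH, Pdgfra in SNF was higher by 2.01 on the log2 scale (SE 0.323, adjusted p = 6.27e-05). Cspg4 was higher by 2.48 (SE 0.348, adjusted p = 1.55e-05), which was the largest of the 7 differences. Gpr17 was higher by 1.69 (SE 0.300, adjusted p = 0.000167). None of the 3 overlapped between SNF and WCH, and each stayed called when any 1 of the 6 libraries was left out. Bcas1 had a difference of 1.79 with a larger error (SE 0.834, adjusted p = 0.125). Of the factors, Olig1 gave 0.59 (SE 0.372, adjusted p = 0.224), although its groups did not overlap. Olig2 gave -0.05 (SE 0.293, adjusted p = 0.899, 95% interval -0.66 to 0.55) and Sox10 gave -0.51 (SE 0.333, adjusted p = 0.227, 95% interval -1.20 to 0.17). The Olig2 difference rested on 31, 41 and 30 counts in SNF replicates 1 to 3.

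Of the 7 genes, 3 were called higher in SNF and 0 lower, where 20.6% of the 13404 tested genes were called higher and 16.5% lower. Groups did not overlap, with SNF higher, for 5 of the 7, against 25.6% of tested genes. The median log2 difference was 1.69 over the 7 and -0.25 over all tested genes. That median moves to -2.60 when libraries are scaled by total counts, which include mitochondrial RNA, and under that scaling Pdgfra (-0.34) and Gpr17 (-0.59) were lower in SNF in absolute terms. Relative to the median of all genes, 6 of the 7 were above it under TMM, relative log expression (RLE) and total-count scaling, and Sox10 was below it under each.

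Because all genes of a library share its scaling, the per-length ratio of 2 genes in a library does not depend on that choice. Pdgfra over Sox10 was 1.08, 1.26 and 1.21 in SNF, against 0.186, 0.166 and 0.294 in WCH. All SNF ratios were above all WCH ratios. For the same pair the ratio was 0.546, 0.901 and 0.509 in SynapTRAP and 0.424, 0.131 and 0.228 in TRAP, again with no overlap. These pairs were picked after their values were seen, so no test is given. Olig1 over Olig2, the neighbours on chromosome 16, was 10.5, 6.85 and 12.2 in SNF, against 5.59, 7.29 and 5.70 in WCH, and these overlapped.

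Other genes of the lineage were counted from lists, here and in the comparisons below. Whether the RNA of these listed genes came from the lineage or from other cells, such as astrocytes, was not tested. Of 19 other precursor genes tested, 10 were higher in SNF than in WCH and 0 lower, with a median of 1.41. The largest called differences were those of Ptprz1, a receptor-type phosphatase of glial membranes, at 2.57 (SE 0.836, adjusted p = 0.0401), Gpr37l1, a G protein-coupled receptor, at 2.10 (SE 0.306, adjusted p = 2.38e-05), and the extracellular matrix genes Tnr at 2.09 (SE 0.243) and Ncan at 2.08 (SE 0.284). Of 20 genes of committed precursors and newly formed oligodendrocytes, 9 were higher and 2 lower, with a median of 0.79, and Enpp6, a choline phosphodiesterase that marks newly formed oligodendrocytes, was higher by 1.58 (SE 0.270, adjusted p = 0.000113). Of 19 other lineage transcription factors, 2 were higher and 2 lower, with a median of -0.33 beside -0.25 for all genes. Myrf, which switches on myelin genes, was higher by 1.14 (SE 0.276, adjusted p = 0.00273) and Nfia by 0.68 (SE 0.234, adjusted p = 0.0271). The zinc finger factor Myt1 was lower by 1.29 (a log2 difference of -1.29, SE 0.460, adjusted p = 0.0318), on 7, 13 and 14 counts in SNF. Among 5 tested ligands and other receptors of the platelet-derived growth factor family, 3 were higher and 0 lower: the receptor Pdgfrb by 1.93, the ligand Pdgfc by 1.30 and the ligand Pdgfa, the main ligand of PDGFRA, by 0.76 (adjusted p = 0.0298).

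Markers of other glia and of vessels and meninges moved with the lineage genes in SNF. Their part in the result was not tested. All 20 astrocyte markers and all 20 microglia markers were higher in SNF than in WCH, as were 13 of 20 mature oligodendrocyte genes, 11 of 12 fibroblast and meninges markers, 5 of 9 tested mural markers and 5 of 15 tested endothelial markers, with 0 lower in each of these lists. Neuron markers were split, with 6 of 20 higher and 3 lower. The astrocyte list summed to 15485 to 21181 CPM in SNF and 2666 to 3333 CPM in WCH. For microglia the sums were 475 to 951 CPM in SNF and 132 to 152 CPM in WCH, and for mature oligodendrocytes 8533 to 11945 CPM in SNF and 3195 to 4005 CPM in WCH. None of the sums of these 3 lists overlapped. Pdgfra is also expressed by meningeal fibroblasts, whose list summed to 198 to 493 CPM in SNF and 46.8 to 62.9 CPM in WCH. Cspg4 is also expressed by pericytes, and the mural list summed to 78.5 to 104 CPM in SNF and 29.1 to 37.4 CPM in WCH. Neurons summed to 13864 to 15625 CPM in SNF and 13004 to 14299 CPM in WCH, and endothelial markers to 303 to 601 CPM in SNF and 103 to 117 CPM in WCH. No gene of these lists was at 0 in all libraries of a group. In bulk RNA such as this, fewer cells or fragments of a type and less RNA in each cannot be told apart.

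The TRAP and WCH libraries were compared to show which RNAs are on tagged neuronal ribosomes. Olig2 and Sox10 were lower on the tagged ribosomes in the filtered fit of all 12 libraries, whose values follow. The other lineage genes did not pass the test there. With no filter, over 20380 genes, Pdgfra, Gpr17 and Olig1 were called lower and Bcas1 higher as well, and Cspg4 was not called. The share of all genes called in the unfiltered fit is not given here. Olig2 in TRAP fell by 1.56 on the log2 scale (SE 0.292, adjusted p = 0.000991), and its groups did not overlap. The Olig2 call held when any 1 of the 6 libraries was left out, at -1.69 to -1.37, and was lost under scaling by total counts, at -1.01 beside a median of 0.56 for all genes. For Sox10 the log2 difference was -1.02 (SE 0.320, adjusted p = 0.0268), with TRAP replicate 3 inside the WCH range. The Sox10 call was lost without TRAP replicate 1 (-0.75), TRAP replicate 2 (-0.81), WCH replicate 1 (-0.80) or WCH replicate 2 (-0.996), and without TRAP replicate 3 the value was -1.52. Olig1 gave -1.01 (SE 0.374, adjusted p = 0.0626), with no overlap between the groups. Pdgfra gave -0.75 (SE 0.322, adjusted p = 0.1004) and Gpr17 gave -0.72 (SE 0.296, adjusted p = 0.0831). Without TRAP replicate 3, all 3 of these genes were called, at -1.67 for Olig1, -1.10 for Pdgfra and -1.02 for Gpr17. Without TRAP replicate 2 they stood at -0.63 for Olig1 (adjusted p = 0.185), -0.34 for Pdgfra (adjusted p = 0.422) and -0.36 for Gpr17 (adjusted p = 0.385). Cspg4 stood at 0.47 (SE 0.342, adjusted p = 0.340), or 0.18 to 0.79 when 1 library was left out. Bcas1 stood at 1.11 (SE 0.816, adjusted p = 0.378), with 1.65 and a call without TRAP replicate 2 (adjusted p = 0.0265) and 0.042 without TRAP replicate 3 (adjusted p = 0.975).

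In all, 2 of the 7 were called lower in TRAP and 0 higher (1 to 5 lower and 0 to 1 higher when 1 library was left out), where 10.9% of tested genes were lower and 11.1% higher. With TRAP lower, 2 of the 7 did not overlap, against 22.5% of tested genes. The median log2 difference was -0.75 over the 7 and -0.01 over all tested genes. Of the 19 other lineage transcription factors, 9 were lower and 0 higher, with Id4 at -1.91 (SE 0.401, adjusted p = 0.00243), Sox9 at -1.44 (SE 0.377), Myrf at -1.36 (SE 0.281) and Nfia at -1.36 (SE 0.237). Of 19 other precursor genes, 6 were lower and 0 higher, among them Tmem100 at -2.63 (SE 0.473, adjusted p = 0.000750) on 9, 4 and 12 TRAP counts, the sialidase gene Neu4 at -2.02 (SE 0.461, adjusted p = 0.00396) and the endothelin receptor gene Ednrb at -1.84 (SE 0.353, adjusted p = 0.00141). Of 20 committed precursor genes, Enpp6 (-1.66, SE 0.279) and Gpr37 (-1.55, SE 0.321) were lower. Pdgfa was the only one of 5 tested platelet-derived growth factor genes to pass, higher in TRAP by 0.75 (SE 0.263, adjusted p = 0.0450).

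The marker lists of other cells split in TRAP. Of 20 neuron markers, 11 were higher and 0 lower, and their sums were 12899 to 22210 CPM in TRAP and 13004 to 14299 CPM in WCH, which overlapped. Astrocyte and microglia markers had 8 of 20 lower and 0 higher each, and mature oligodendrocyte genes 11 of 20 lower and 0 higher. Astrocyte sums were 808 to 1736 CPM in TRAP and 2666 to 3333 CPM in WCH, and microglia sums 37.9 to 82.0 CPM in TRAP and 132 to 152 CPM in WCH. Mature oligodendrocyte genes summed to 718 to 7760 CPM in TRAP and 3195 to 4005 CPM in WCH, and Mbp alone had 153 to 5937 CPM in TRAP. Of the mural markers 0 of 9 passed, of the endothelial markers 2 of 15 were higher, and of the fibroblast markers 1 of 12 was higher and 3 were lower. Endothelial sums were 153 to 396 CPM in TRAP and 103 to 117 CPM in WCH. What part these cells had in the lineage genes of TRAP was not tested.

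**Figure D2:**
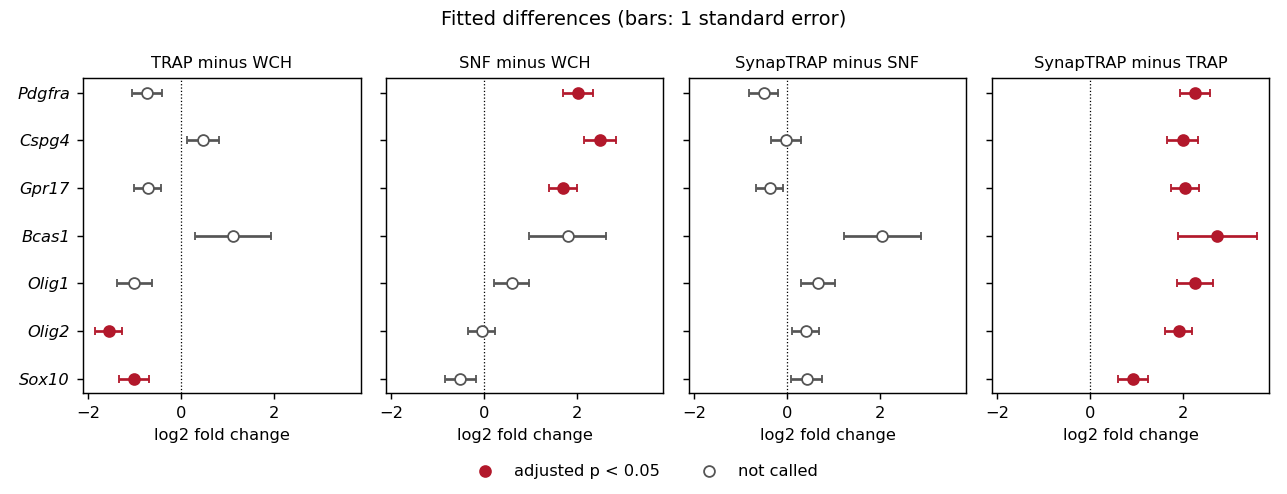
Fitted log2 differences of the 7 genes (rows) in 4 comparisons (panels), with bars of 1 standard error and filled points for an adjusted p under 0.05. The 3 surface protein genes stand at 1.69 to 2.48 in SNF minus WCH and the 7 genes at 0.92 to 2.73 in SynapTRAP minus TRAP; with scaling by total counts, the SNF minus WCH values of Pdgfra and Gpr17 and the SynapTRAP minus TRAP value of Sox10 turn negative.

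Both pull-downs were then compared with each other, SynapTRAP against TRAP. All 7 genes were higher in SynapTRAP. Pdgfra was higher by 2.25 on the log2 scale (SE 0.327, adjusted p = 2.17e-05), Cspg4 by 1.99 (SE 0.329, adjusted p = 8.20e-05) and Gpr17 by 2.03 (SE 0.303, adjusted p = 2.96e-05). Olig1 was higher by 2.26 (SE 0.385, adjusted p = 0.000278) and Olig2 by 1.90 (SE 0.294, adjusted p = 4.10e-05). These 5 genes did not overlap between SynapTRAP and TRAP, and they stayed called when any 1 of the 6 libraries was left out. Bcas1 was higher by 2.73 with the largest error (SE 0.851, adjusted p = 0.0320), and it was no longer called without SynapTRAP replicate 3 (1.92), without TRAP replicate 1 (2.54) or in a fit of the SynapTRAP and TRAP libraries alone (2.80). Sox10 was higher by 0.92 (SE 0.322, adjusted p = 0.0274), with overlapping groups, and it was not called without SynapTRAP replicate 3 (0.62), TRAP replicate 1 (0.64) or TRAP replicate 2 (0.70). Under scaling by total counts Olig2 was no longer called (0.94, adjusted p = 0.0534) and Sox10 stood at -0.08, while the median of all genes was -0.999 and not the -0.02 of TMM scaling.

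The 7 of 7 called higher, or 5 to 7 when 1 library was left out, stood beside 21.6% of tested genes called higher, and the 6 of 7 without overlap beside 21.4%. The median was 2.03 over the 7 and -0.02 over all tested genes. Of the other precursor genes 13 of 19 were higher in SynapTRAP, of the committed precursor genes 14 of 20, of the other lineage transcription factors 7 of 19 and of the platelet-derived growth factor family 2 of 5, with 0 lower in each. The largest were Gpr37l1 at 2.94 (SE 0.320, adjusted p = 9.97e-07) and Ednrb at 2.86 (SE 0.359, adjusted p = 7.04e-06) among precursor genes, and Enpp6 at 2.18 (SE 0.281) and Gpr37 at 2.14 (SE 0.323) among committed ones. Myrf was higher by 2.04 (SE 0.284, adjusted p = 1.30e-05). Pdgfrb was higher by 2.03 (SE 0.511, adjusted p = 0.00399). The ligand gene Pdgfd passed on few reads, with 58, 8 and 5 counts in SynapTRAP and 2, 4 and 0 counts in TRAP, and no fold is given for it. In the lists of other cells, all 20 astrocyte and all 20 microglia markers were higher in SynapTRAP, as were 17 of 20 mature oligodendrocyte genes, 10 of 12 fibroblast, 4 of 9 mural and 2 of 15 endothelial markers. Neuron markers had 5 higher and 7 lower. Sums were 10730 to 18451 CPM in SynapTRAP and 808 to 1736 CPM in TRAP for astrocytes, and 300 to 668 CPM in SynapTRAP and 37.9 to 82.0 CPM in TRAP for microglia. Mature oligodendrocyte genes summed to 10830 to 22756 CPM in SynapTRAP and 718 to 7760 CPM in TRAP. No sum of these 3 lists overlapped. Fibroblast markers summed to 164 to 944 CPM in SynapTRAP and 48.5 to 187 CPM in TRAP and mural markers to 53.9 to 86.3 CPM in SynapTRAP and 20.1 to 54.9 CPM in TRAP, and both overlapped. GFP mRNA in SynapTRAP fell by 1.85 on the log2 scale relative to TRAP (SE 0.321, adjusted p = 0.000131). The part of these cells in the lineage result was not tested.

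**Figure D3:**
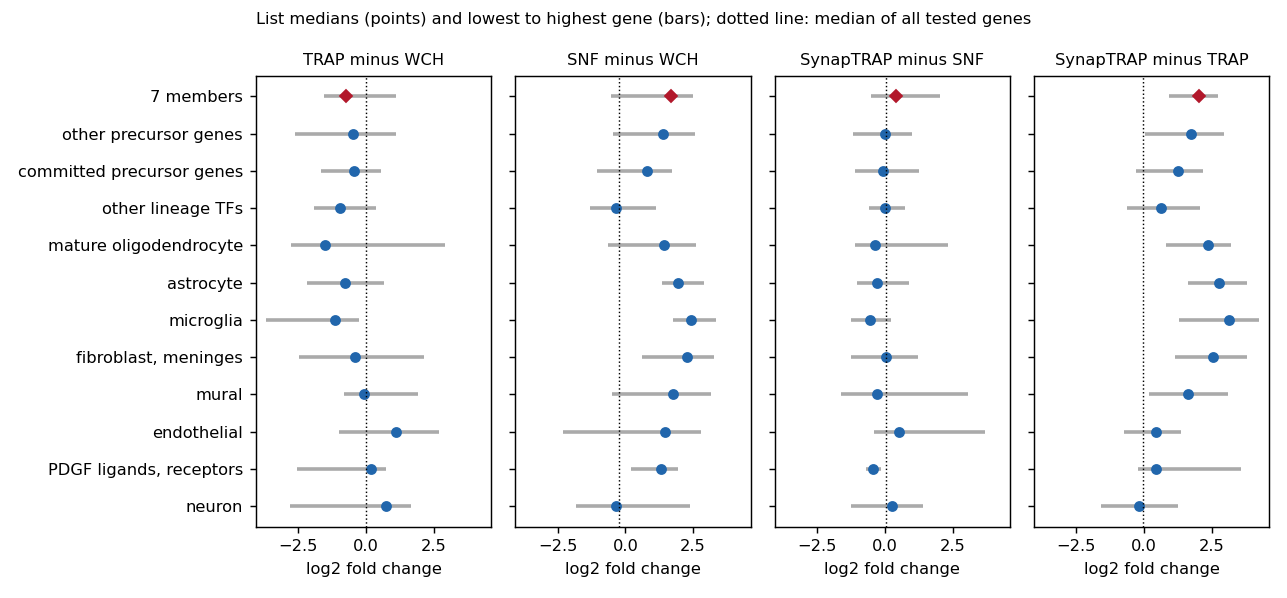
Median log2 difference of each gene list (points), with bars over its lowest to highest gene, in 4 comparisons; the dotted line is the median of all tested genes, which scaling by total counts would move to 0.56, -2.60, 1.98 and -0.999 in the order of the panels. The medians of the 7 lineage genes and of the astrocyte and microglia lists lie above the line in SNF minus WCH and SynapTRAP minus TRAP, and below it in TRAP minus WCH.

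The pull-down from the synaptic band was compared with the band itself. None of the 7 genes was called between SynapTRAP and SNF by edgeR's quasi-likelihood test in the filtered fit of all 12 libraries. In that fit 1 had an unadjusted p under 0.05, and DESeq2 called 0. The background was small, with 2.29% of tested genes higher and 1.79% lower (307 and 240 genes, or 441 and 393 with the replicate number as a block). The gene with an unadjusted p under 0.05 was Bcas1, at 2.05 (SE 0.833, unadjusted p = 0.0375, adjusted p = 0.221), and it stood at 1.24 without SynapTRAP replicate 3 (adjusted p = 0.453). Bcas1 was called higher with no filter, beside 547 of 20380 genes. It was also called higher in a fit of the SynapTRAP and SNF libraries alone, beside 138 of 11616 genes. Without the same library Olig1 stood at 0.28, against 0.66 with it, and Sox10 at 0.12, against 0.42. The groups of Bcas1 did not overlap, with SynapTRAP higher. Those of Pdgfra did not overlap either, with SynapTRAP lower, at -0.51 (SE 0.310, adjusted p = 0.389, 95% interval -1.15 to 0.14). Among tested genes, 12.4% did not overlap with SynapTRAP higher and 10.0% with SynapTRAP lower. The interval was -0.68 to 0.64 for Cspg4, -0.99 to 0.22 for Gpr17, -0.12 to 1.45 for Olig1, -0.21 to 1.01 for Olig2 and -0.28 to 1.11 for Sox10. A difference of 1 on the log2 scale, in one direction, lay inside the interval of Pdgfra, Olig1, Olig2 and Sox10 and outside that of Cspg4 and Gpr17. The median was 0.40 over the 7 and 0.03 over all tested genes. Under scaling by total counts it was 1.98 over all genes, and all 7 lineage genes were called higher, beside 12169 of the 13404 tested genes.

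Over the lists, 0 of 19 other precursor genes, 0 of 19 lineage transcription factors and 0 of 5 platelet-derived growth factor genes were called between SynapTRAP and SNF. Enpp6 was lower in SynapTRAP by 1.06 (a log2 difference of -1.06, SE 0.267, adjusted p = 0.0268), the only one of 20 committed precursor genes to pass. Of the mature oligodendrocyte genes 3 of 20 were lower, the membrane protein genes Tspan2 at -1.11 (SE 0.265, adjusted p = 0.0213) and Mal at -1.09 (SE 0.282, adjusted p = 0.0314), and Ugt8a, which makes the myelin lipid galactosylceramide, at -0.92 (SE 0.252, adjusted p = 0.0410). Among microglia markers 1 of 20 was lower, among neuron markers 2 of 20 were higher (Camk2a at 1.43 and Nefl at 1.02), and 0 passed in the astrocyte, mural, endothelial and fibroblast lists. GFP mRNA was higher in SynapTRAP than in SNF by 1.48 (SE 0.389, adjusted p = 0.0336).

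Whether the pull-down acted differently on the band and on the homogenate was tested as a difference of differences, SynapTRAP minus SNF less TRAP minus WCH. Olig2 was the only one of the 7 to pass, at 1.96 (SE 0.413, adjusted p = 0.0314), where 0.507% of tested genes were called higher and 0.358% lower. Its parts were 0.40 in the band and -1.56 in the homogenate. The value ran from 1.67 to 2.12 over the 12 fits that each left out 1 library, and it was called in 4 of them, the call being lost without SynapTRAP replicate 1, any 1 SNF library, TRAP replicate 2 or any 1 WCH library. Olig1 gave 1.67 (SE 0.527, adjusted p = 0.122) and Sox10 gave 1.43 (SE 0.463, adjusted p = 0.117). Without TRAP replicate 3 both were called, at 2.23 for Olig1 (adjusted p = 0.0205) and 1.83 for Sox10 (adjusted p = 0.0446), and without TRAP replicate 2 they stood at 1.20 and 1.12. With the replicate number as a block Olig1 was called too, at 1.78 (adjusted p = 0.0222). Bcas1 gave 0.94 (SE 1.14), or 0.13 without SynapTRAP replicate 3 and 1.90 without TRAP replicate 3. The remaining values were Gpr17 0.34 (SE 0.414), Pdgfra 0.24 (SE 0.445) and Cspg4 -0.50 (SE 0.468). From the lists, Neu4 at 3.03 (SE 0.653, adjusted p = 0.0323), on 11, 24 and 7 counts in SNF and 15, 11 and 20 in TRAP, was the only 1 of 19 other precursor genes to pass, and Ermn at 2.40 (SE 0.529, adjusted p = 0.0414) and Tspan2 at 1.67 (SE 0.375, adjusted p = 0.0356) passed among the 20 mature oligodendrocyte genes.

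The comparisons share libraries, so their values are set side by side and not correlated. For Pdgfra the log2 differences were 2.01 in SNF minus WCH, -0.51 in SynapTRAP minus SNF, -0.75 in TRAP minus WCH and 2.25 in SynapTRAP minus TRAP. The same 4 values for Sox10 were -0.51, 0.42, -1.02 and 0.92. These values hold under TMM scaling. Under total counts SNF minus WCH was -0.34 for Pdgfra and -2.91 for Sox10, while relative to the median of all genes Pdgfra stood at 2.26 under both scalings and Sox10 at -0.26 under TMM and -0.31 under total counts.

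Bcas1 was the farthest from the others of the 7 in its pattern over the 12 libraries, measured as the root mean square difference of centred log2 CPM. Its nearest neighbour among the 7, Olig1, was at 0.996, whereas the nearest neighbour of each other gene was at 0.291 (Pdgfra and Gpr17) to 0.528 (Cspg4 and Gpr17). By the same measure the tested genes of like abundance closest to Bcas1 were Myo6 (0.362), Amot (0.362) and Plekhb1 (0.489), against a median of 1.67 over 3813 genes compared. Myo6, a myosin motor gene, had 264, 198 and 369 CPM in SynapTRAP, 110, 61.6 and 109 CPM in SNF, 61.1, 6.06 and 123 CPM in TRAP and 30.2, 30.6 and 27.1 CPM in WCH. Replicate 2 was the lowest of its TRAP libraries and replicate 3 the highest in both pull-downs, as for Bcas1. Because Myo6 was chosen for closeness to Bcas1 over these same libraries, that likeness is part of the choice and no separate finding.

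Myelin genes were set beside Bcas1 after their values were seen. Mbp, the major myelin basic protein whose mRNA is known to be carried into oligodendrocyte processes, had 6195, 4685 and 16671 CPM in SynapTRAP, 1924, 1457 and 2049 CPM in SNF, 1272, 153 and 5937 CPM in TRAP and 451, 515 and 461 CPM in WCH. Mobp, another myelin protein mRNA found in processes, had 292, 230 and 883 CPM in SynapTRAP, 214, 199 and 230 CPM in SNF, 102, 37.6 and 358 CPM in TRAP and 225, 264 and 182 CPM in WCH. In both pull-downs, replicate 3 was the highest for Bcas1, Mbp and Mobp. For both Bcas1 and Mbp, all SynapTRAP values lay above all SNF values. Neither difference passed the test, at 2.34 for Mbp (SE 1.05, adjusted p = 0.267) and 2.05 for Bcas1 (adjusted p = 0.221).

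**Figure D4:**
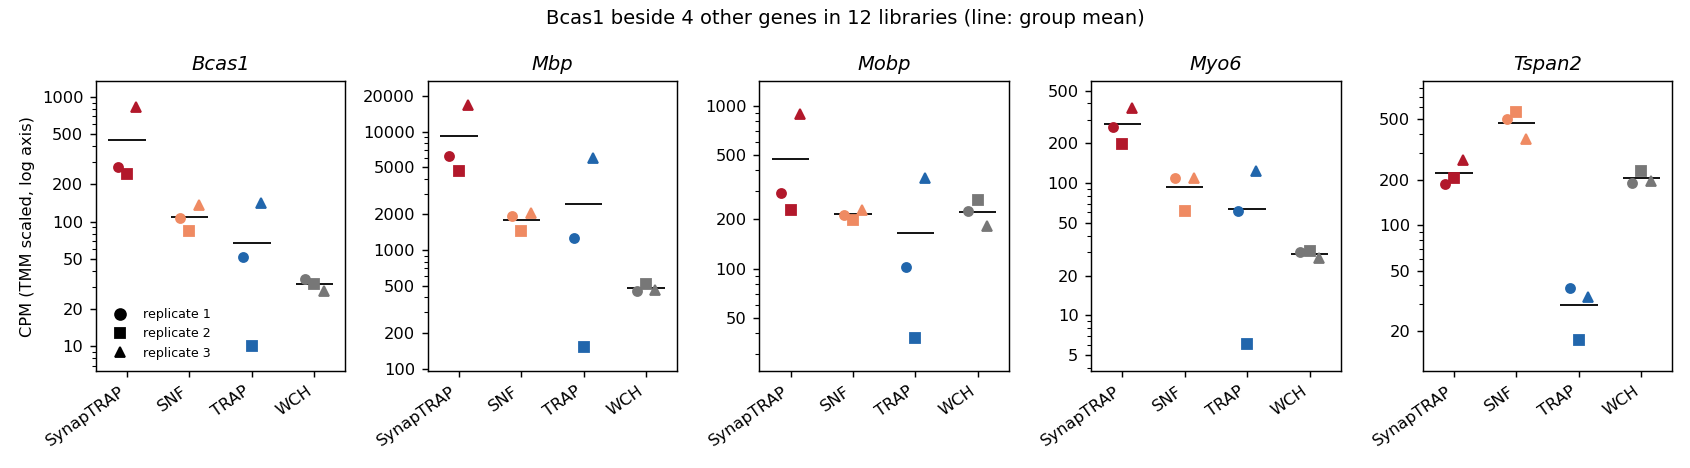
Bcas1 beside 4 other genes in every library (y axis, TMM-scaled CPM on a log axis; symbols, replicates; line, group mean). Bcas1, Mbp, Mobp and Myo6 have their highest group mean in SynapTRAP and spread widely over the TRAP libraries, from 10.1 to 140 CPM for Bcas1, while Tspan2 has it in SNF; scaling by total counts moves the median of all genes in SynapTRAP minus SNF to 1.98, against 0.03 here.

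Genes with the pattern closest to the other members were found by the same measure, as a description over 12 libraries that share group and scaling. Egfr, a growth factor receptor, was the closest to both Pdgfra (0.266) and Gpr17 (0.265). It had 40.1, 50.3 and 38.3 CPM in SynapTRAP, 60.9, 63.2 and 59.3 CPM in SNF, 10.2, 3.98 and 10.8 CPM in TRAP and 11.5, 16.3 and 17.8 CPM in WCH. For Pdgfra the next were Gpr17 (0.291) and Tmem176b (0.335), and for Gpr17 they were Lamp2 (0.284) and Pdgfra (0.291). Fads2 (0.274), Plxnb1 (0.297) and Olfml2b (0.300) were closest to Cspg4. Olig1 was nearest to Gltp (0.229), Epb41l2 (0.256) and Sox6 (0.304), and Sox6 is itself on the list of precursor genes. Cttnbp2nl (0.281), Anln (0.320) and Tmcc3 (0.326) were closest to Olig2, and Fmn1 (0.228), Usp49 (0.269) and Atad2b (0.301) to Sox10.

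The authors' deposited tables of selected genes list some of the 7. In the authors' deposited table of genes enriched in the synaptic fraction, which has 3508 rows, 4 of the 7 appear, with log2 fold changes of 2.82 for Cspg4, 2.21 for Pdgfra, 1.84 for Gpr17 and 1.71 for Bcas1. The false discovery rate of Bcas1 in the authors' deposited table is 0.0102, beside a likelihood ratio statistic of 8.91. The quasi-likelihood test on all 12 libraries, a different test, gave an adjusted p of 0.125. DESeq2 and a fit of the SNF and WCH libraries alone called Bcas1 higher. The authors' deposited table of local translation candidates, with 109 rows, lists Bcas1 alone of the 7, with a log2 fold change by TRAP of 1.37, an unadjusted p of 0.0343 and a false discovery rate of 0.237. The authors' deposited table of somatic candidates, with 275 rows, lists 0 of the 7. How the authors chose the rows is not stated.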

How the data were processed

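RNA was sequenced from 12 libraries, 3 each of SynapTRAP, SNF, TRAP and WCH, grouped by their titles. A NuGEN kit was used for cDNA, per the labels' protocols. The submitters' processing notes name HTSeq, STAR, Bowtie2 and edgeR without versions, and the genome build and annotation are not stated. The authors deposited raw read counts for 29879 genes, with 5 summary lines of reads counted for no gene (19.3% to 58.3% of the reads of a library), which were left out. Per the file headers, the authors' 3 tables give log2 fold changes, p-values with false discovery rates, and likelihood ratio scores. Some of these values are quoted above for the lineage genes, and none entered the fits. Symbols came from GENCODE M21 for 28758 identifiers and from the authors' tables for 14, and 1107 had none.

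One model with a mean per group was fitted to all 12 libraries in edgeR 4.0.16 under R 4.3.3, after TMM scaling, for the 13404 genes that its default filter on low counts kept. In it, 5 contrasts were tested with the robust quasi-likelihood test, two-sided, and a gene was called where its p, adjusted by Benjamini-Hochberg over all tested genes, was under 0.05. SE is the size of the fitted log2 difference over the root of its F statistic, and 95% intervals use it with the degrees of freedom of that test. Alternatives were RLE and total-count scaling, removal of mitochondrial genes, DESeq2 1.42.0, no filter, a replicate block, a fit of the compared groups alone, and leaving out each library. The 7 genes were always named. Of each other list, at most the 4 called genes of largest change were named, and for each of the 7 the 3 genes of closest pattern within 2 log2 units of mean level (prior count 2). Genes and lists were chosen with earlier results of these data known. On simulated counts for TRAP minus WCH (13088 genes), the test recovered 26% of 100 genes changed by 1 on the log2 scale and 79.4% of 97 changed by 2, with 1.90% false calls. Between replicates, the chi-square per gene was 8.28 to 252, so no libraries were merged. SNF had the fewest counts outside the mitochondrial genome, 1819853 to 2111322 per library. Same-numbered libraries deviated together with r over 0.1 in all 3 pairs of SynapTRAP and SNF (0.218 to 0.378) and of SynapTRAP and TRAP (0.104 to 0.144). There the numbers were taken as pairing, from the data and not the labels. The fit of group means holds no block, so its differences, SE and p are unpaired in these comparisons too. With the replicate block, the 7 genes kept their direction and side of the threshold in both. The numbers were not taken as pairing for SNF and WCH (0.065 to 0.165) or TRAP and WCH (-0.015 to 0.063).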

Additional observations from a re-analysis of the deposited data

Results flagged for a closer look

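The effect of the pull-down on Olig2 differed between the synaptic band and the homogenate. The difference of differences, SynapTRAP minus SNF less TRAP minus WCH, was 1.96 on the log2 scale (SE 0.413, adjusted p = 0.0314, edgeR's quasi-likelihood test of the interaction). Over the 12 fits that each left out 1 library the adjusted p ran from 0.0280 to 0.125. The value rested on 30 to 41 Olig2 counts per SNF library and 27 to 52 per TRAP library. No group of 3 libraries is large enough to test single libraries for distance from the others.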

How the results depend on the processing

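Over 490 recomputed differences of the 7 genes, 413 kept their direction and side of the threshold, 34 became called, 22 lost the call and 21 changed sign, and the cause of those changes was not tested beyond the scaling values given here. Total-count scaling, which counts mitochondrial RNA, moved the median of all genes to 0.56 in TRAP minus WCH, -2.60 in SNF minus WCH, 1.98 in SynapTRAP minus SNF, -0.999 in SynapTRAP minus TRAP and 1.46 in the interaction. Under it the genes called were 1 higher and 0 lower in TRAP minus WCH, 0 higher and 3 lower in SNF minus WCH, 7 higher in SynapTRAP minus SNF and 6 higher in the interaction. It turned SNF minus WCH to -0.34 for Pdgfra, -0.59 for Gpr17, -0.59 for Bcas1 and -1.79 for Olig1, SynapTRAP minus SNF to 1.44 for Pdgfra, 1.96 for Cspg4 and 1.55 for Gpr17, SynapTRAP minus TRAP to -0.076 for Sox10, and the interaction to 0.94 for Cspg4. Calls over all genes under it were 2862 higher and 232 lower in TRAP minus WCH (1488 and 1459 under TMM), 11 and 11438 in SNF minus WCH (2757 and 2209), 12169 and 6 in SynapTRAP minus SNF (307 and 240), 596 and 6399 in SynapTRAP minus TRAP (2899 and 2432) and 6328 and 0 in the interaction (68 and 48). RLE scaling gave 1415 lower in SNF minus WCH, 185 higher and 366 lower in SynapTRAP minus SNF, and 38 and 75 in the interaction. Values near 0 changed sign elsewhere. Olig2 in SNF minus WCH became 0.082 under RLE, 0.077 with DESeq2 and 0.071 with the compared groups alone, and it ran from -0.22 to 0.18 over fits without 1 library, positive without SNF replicate 3 (0.079) or WCH replicate 1 (0.18). Cspg4 in SynapTRAP minus SNF became 0.00047 with no filter and ran from -0.33 to 0.18 without 1 library, positive without SynapTRAP replicate 2 (0.075) or 3 (0.067) or SNF replicate 1 (0.017) or 2 (0.18). The interaction ran from -0.27 to 0.49 for Pdgfra and from -0.13 to 0.56 for Gpr17, each lowest without TRAP replicate 2. With no filter, 1 gene of the 7 was called higher and 5 lower in TRAP minus WCH, 1 higher in SynapTRAP minus SNF and 3 in the interaction. Over all 20380 genes that fit gave 547 higher in SynapTRAP minus SNF and 310 higher and 202 lower in the interaction. Its share of all genes called in TRAP minus WCH is not given here. DESeq2 called 2 in the interaction, Olig1 in TRAP minus WCH (-0.98) and Bcas1 in SNF minus WCH (1.91), and over all genes 620 lower in SynapTRAP minus SNF and 182 higher and 407 lower in the interaction. With the compared groups alone, 5 of the 7 were higher in SNF minus WCH, namely Pdgfra, Cspg4, Gpr17, Bcas1 and Olig1. In the fit of all 12 libraries, 20.6% of tested genes were called higher in that comparison. That share belongs to another fit, since the fit of the compared groups alone tested 12356 genes. The share of all genes called in the latter is not given here. Bcas1 was the 1 gene of the 7 higher in SynapTRAP minus SNF with the compared groups alone. Over all genes such fits gave 138 higher and 121 lower in SynapTRAP minus SNF and 1458 lower in SynapTRAP minus TRAP. Leaving out 1 library gave 0 to 1 higher and 1 to 5 lower of the 7 in TRAP minus WCH, 3 to 3 higher in SNF minus WCH, 5 to 7 higher in SynapTRAP minus TRAP and 0 to 3 higher in the interaction. Over all genes it gave 652 to 1550 higher and 832 to 1285 lower in TRAP minus WCH, 2193 to 2666 and 971 to 1973 in SNF minus WCH, 19 to 499 and 20 to 453 in SynapTRAP minus SNF, 2324 to 2971 and 1953 to 2642 in SynapTRAP minus TRAP, and 0 to 241 and 0 to 297 in the interaction. The same replicate number correlated best in 31 of 36 cases, which is a hint from the data and not the design where the numbers were not taken as pairing. With the replicate block, 33 of 35 differences kept their direction and side of the threshold, while Olig1 was called in TRAP minus WCH (-1.18, adjusted p = 0.00466) and in the interaction (1.78, adjusted p = 0.0222), where 2 of the 7 were then called. Over all genes the block gave 393 lower in SynapTRAP minus SNF and 217 higher and 149 lower in the interaction.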
